A study of Homo sapiens with 10 samples.

Results

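The fibrinogen genes FGA, FGB and FGG encode the Aα, Bβ and γ chains of fibrinogen, the plasma protein that thrombin turns into the fibrin of a blood clot. FGL1 encodes fibrinogen-like 1, a secreted relative that is also a ligand of the immune receptor LAG3. These 4 genes, of 28265 gene symbols in the count files, were followed through the differentiation of human embryonic stem cells into thyroid organoids. They were taken by gene symbol, and they were chosen by their levels in these same 10 libraries, so their levels and changes are given as a description and carry no test.

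Bulk RNA-seq libraries, 2 per day, came from sorted NKX2-1GFP+ organoid cells of the line ESIBIe003-A-6, taken on days 16, 23, 31, 38 and 45. The line is a modified clone of a human ESC line in which GFP reports NKX2-1 and doxycycline switches on added copies of NKX2-1 and PAX8. All 10 libraries share this background, and by the study's methods all cultures received Activin A and a pulse of doxycycline and were kept in medium with serum. The sample labels name c-AMP on days 16, 23 and 31, TSH and DEX (dexamethasone, a glucocorticoid) on day 38, and TSH and SB (SB431542, an inhibitor of TGFβ receptor kinases) on day 45. By the study's methods the day 16 cells were in basal medium without cAMP, dexamethasone was also present on day 45, and the change from cAMP to TSH took place shortly before day 31. Day of culture and medium changed together and cannot be told apart, and the study's cells kept on cAMP to days 38 and 45 were not analysed here. Each library holds pooled wells, and GFP reports NKX2-1, which marks thyroid, lung and forebrain progenitors alike. The sorted cells carried thyroid transcripts at every day: TG, the thyroglobulin gene, ran from a mean of 11.2 CPM (counts scaled to library size) on day 16 to 7741 CPM on day 45. Deposited totals were 7247268 to 10333933 counts per library. A floor of 3 counts, used for folds against a day with 0 counts in both libraries, corresponds to 0.307 to 0.435 CPM. Levels under this floor are printed as measured.

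Fibrinogen is a hexamer with a pair of each chain, joined by disulfide bonds in the endoplasmic reticulum, and all 3 chains are needed for its secretion. Hepatocytes are its main source, where C/EBP factors act on the chain promoters and where interleukin-6, through STAT3, together with glucocorticoids raises all 3 genes in the acute phase response. Lung epithelial cells are also known to make fibrinogen under the same hormones.

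FGA, FGB and FGG form a cluster on the long arm of chromosome 4. In GENCODE 44 on GRCh38, FGB spans chr4:154563011-154572807 on the plus strand, FGA spans chr4:154583126-154590742 on the minus strand and FGG spans chr4:154604134-154612967 on the minus strand, with gaps of 10318 and 13391 bases between neighbours. All are protein-coding and have several exons and introns. FGG shares its strand and part of its span with an annotated unprocessed pseudogene, so a share of its reads could have been assigned elsewhere. The strand setting of the counting is not given in the sources used here.

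The bases before the start sites show what the chain genes share outside the measurements. The sequences are RefSeq's on GRCh38.p14, 5′ to 3′ on the strand of the gene. For FGA (chr4:154590743-154590992) and FGB (chr4:154562761-154563010) all 250 bases before the start are given. The FGG window (chr4:154612657-154612906) overlaps exons of other GENCODE transcripts of FGG, so only the 30 bases around each match are given (chr4:154612800-154612829, then chr4:154612681-154612710). Capitals mark matches, on either strand, to CTGGGA (the core of the interleukin-6 response element) and TTGCNNAA (a C/EBP site). AGAACA, the core of the glucocorticoid receptor site, was searched in the same way. The motifs do not overlap in these windows.
FGA: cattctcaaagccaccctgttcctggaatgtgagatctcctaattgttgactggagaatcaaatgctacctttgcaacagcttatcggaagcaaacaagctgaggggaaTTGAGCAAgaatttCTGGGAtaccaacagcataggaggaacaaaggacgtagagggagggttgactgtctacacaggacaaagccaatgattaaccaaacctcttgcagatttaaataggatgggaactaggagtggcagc
FGB: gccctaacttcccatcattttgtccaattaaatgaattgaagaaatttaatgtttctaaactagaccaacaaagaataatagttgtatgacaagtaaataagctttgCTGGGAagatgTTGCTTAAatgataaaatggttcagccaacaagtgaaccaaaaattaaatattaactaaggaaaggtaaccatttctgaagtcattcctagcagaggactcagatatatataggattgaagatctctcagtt
FGG first match: tgtgtgcaaaatCTGGGAacctgacagtat
FGG second match: cagtcctggctaTCCCAGgagcttacataa

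CTGGGA occurred in all 3 windows, 127 bases before the start of FGA, 143 before that of FGB, and 161 and, on the reverse strand, 42 before that of FGG. It was also found in 28.7% of 35116 RefSeq promoter windows of the same length. TTGCNNAA occurred in the FGA window (141 bases, reverse strand) and the FGB window (132 bases), against 9.05%. The FGG window held no match to these letters. AGAACA was in none of the 3 windows and in 12.4% of all windows. These matches are descriptions of the letters and do not show binding. The windows also differed in composition, with 45.2% G and C bases in FGA, 32.0% in FGB and 50.8% in FGG.

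FGB was the most abundant of the 4 genes from day 23 on in CPM. Per kilobase of exon it led on days 31 and 45, with FGG above it on day 23 and FGA level with it on day 38. For days 16, 23, 31, 38 and 45 in turn, the replicate libraries held 11 and 0, 109 and 123, 676 and 452, 63 and 36, and 506 and 704 FGB counts. Scaled to CPM with TMM factors, the FGB levels were 1.39 and 0, 12.1 and 14.1, 69.2 and 52.6, 6.80 and 4.19, and 73.4 and 76.9. FGB was therefore near the detection limit on day 16, reached a first high level on day 31, returned to a low level on day 38 and was highest on day 45. In order of daily mean, day 16 (0.697 ± 0.986 CPM, SD, n = 2 here and below) was followed by day 38 (5.50 ± 1.85), day 23 (13.1 ± 1.40), day 31 (60.9 ± 11.7) and day 45 (75.1 ± 2.43). Days 31 and 45 differed by little more than the SD on day 31, and the other neighbours in this order by more than the SD of either day. Among all genes, FGB ranked 3849 by mean CPM on day 31, 12566 on day 38 and 3197 on day 45.

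FGG followed the same course from a start of 0. Over the same days its counts were 0 and 0, 109 and 108, 323 and 282, 35 and 5, and 195 and 223, or 0 and 0, 12.1 and 12.3, 33.1 and 32.8, 3.78 and 0.582, and 28.3 and 24.3 CPM. FGG thus went undetected in both day 16 libraries, the libraries of day 23 and of day 31 were close to each other, and those of day 38 lay far apart. Daily means were 12.2 ± 0.188 CPM on day 23, 32.9 ± 0.176 on day 31, 2.18 ± 2.26 on day 38 and 26.3 ± 2.79 on day 45. FGG was highest on day 31 rather than day 45. In the order of its means, days 16 and 38 differed by less than the SD on day 38, and the other neighbours by more than the SD of either day.

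FGA had the lowest level of the chains on days 23, 31 and 45 and varied widely between replicates. Over the same days its counts were 14 and 1, 46 and 7, 143 and 137, 58 and 32, and 160 and 89, or 1.77 and 0.123, 5.10 and 0.800, 14.6 and 15.9, 6.26 and 3.73, and 23.2 and 9.72 CPM. The libraries of day 16 overlapped with those of day 23, those of day 23 with those of day 38, and those of day 31 with those of day 45. Daily means were 0.949 ± 1.17, 2.95 ± 3.04, 15.3 ± 0.921, 4.99 ± 1.79 and 16.5 ± 9.55 CPM from day 16 to day 45. The high and low days of FGA were those of FGB, with a shallower low on day 38.

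FGL1 stayed close to the detection limit. It lies apart from the cluster, at chr8:17864380-17910365 on the minus strand of GRCh38, and overlaps 2 long noncoding RNA genes on the opposite strand, from which its few reads cannot be told apart if counting ignored strand. It had 0 and 0, 0 and 6, 28 and 5, 8 and 5, and 3 and 0 counts over these days, and 28 of the 55 counts came from replicate 1 of day 31. The highest daily mean was 1.72 ± 1.61 CPM, and neighbouring days in its order overlapped or were at the floor, so no course over time could be read at this depth. All 4 genes passed the filter of at least 5 counts in at least 2 libraries. FGL1 passed it with 5 libraries.

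Between successive days, the chains changed by unlike amounts. From day 16 to day 23, mean FGB was 18.7-fold higher, although its day 16 level rests on 11 counts in 1 of the 2 libraries, and FGG was at least 32.6-fold higher, taking 3 counts in each day 16 library as the floor. FGA overlapped between these days, and its fitted log2 fold change of 1.63 became -0.23 without replicate 1 of day 23. From day 23 to day 31, mean levels were 5.18-fold higher for FGA, 4.66-fold for FGB and 2.70-fold for FGG, with no overlap between libraries for any chain, as for 20.4% of the 21014 tested genes in that direction. The FGA value depends on both day 23 libraries: the fitted log2 fold change of 2.36 was 4.23 without replicate 1 and 1.58 without replicate 2.

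On day 38, after TSH and dexamethasone had taken the place of cAMP, mean levels were 3.06-fold lower for FGA, 11.1-fold lower for FGB and 15.1-fold lower for FGG than on day 31. In fitted log2 fold changes these were -1.61, -3.46 and -3.89, and both day 38 libraries lay below both day 31 libraries for every chain, as they did for 26.9% of all tested genes. The FGG value was -5.79 without replicate 1 of day 38, which held 35 of the 40 FGG counts of that day, and -3.12 without replicate 2. On day 45, with SB431542 added, means were 3.30-fold (FGA), 13.7-fold (FGB) and 12.1-fold (FGG) higher than on day 38, again with no overlap, as for 25.3% of all tested genes in that direction. With 2 libraries a day, and genes chosen by their levels, nothing is read from these separations. The fitted FGA value of 1.71 was 0.96 without replicate 1 of day 45. This comparison and the previous one share the day 38 libraries, so the size of the low on day 38 enters both. For FGG, the fitted value of 3.57 was 5.46 without replicate 1 of day 38. FGL1 counts of 28 and 5 on day 31, 8 and 5 on day 38 and 3 and 0 on day 45 allow no such statement, and its fitted change on day 38 turned from -1.24 to 0.30 without replicate 1 of day 31. Over the whole course, day 45 levels were 17.4-fold those of day 16 for FGA, 108-fold for FGB and at least 70.2-fold for FGG, the first 2 resting on 15 and 11 counts on day 16. Fitted values against day 16 moved by more than 1.5 times without replicate 1 of day 16, which held all but 1 of those counts, to 6.89 for FGA and 12.34 for FGB, the latter set by the fit's prior count.

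The proportions of the chains differed between days. Together the 3 chain genes took 25 and 1, 264 and 238, 1142 and 871, 156 and 73, and 861 and 1016 counts over the 5 days. FGA made up 12.5% (95% Wilson interval 10.7 to 14.6) and 15.7% (13.5 to 18.3) of these counts in the day 31 libraries, 37.2% (29.99 to 45.0) and 43.8% (33.0 to 55.2) in the day 38 libraries, and 18.6% (16.1 to 21.3) and 8.76% (7.17 to 10.7) in the day 45 libraries. Both day 38 libraries were above all libraries of days 23, 31 and 45, and these intervals cover counting error only. Per kilobase of exon, the mean FGA share was 10.3% on day 23, 14.6% on day 31, 42.0% on day 38 and 14.3% on day 45. On the same scale, FGB took 42.1%, 51.4%, 41.6% and 60.2%, and FGG took 47.7%, 34.1%, 16.4% and 25.5% of the chains' level. In day 38 replicate 2, FGG was down to 7.81% of the level per kilobase, on 5 counts. With the length of the canonical transcript in place of all exons, a choice made after seeing the data, the FGA share was 17.6% on day 31 and 48.8% on day 38, and FGG took more than FGB on day 23 on both scales.

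**Figure D1:**
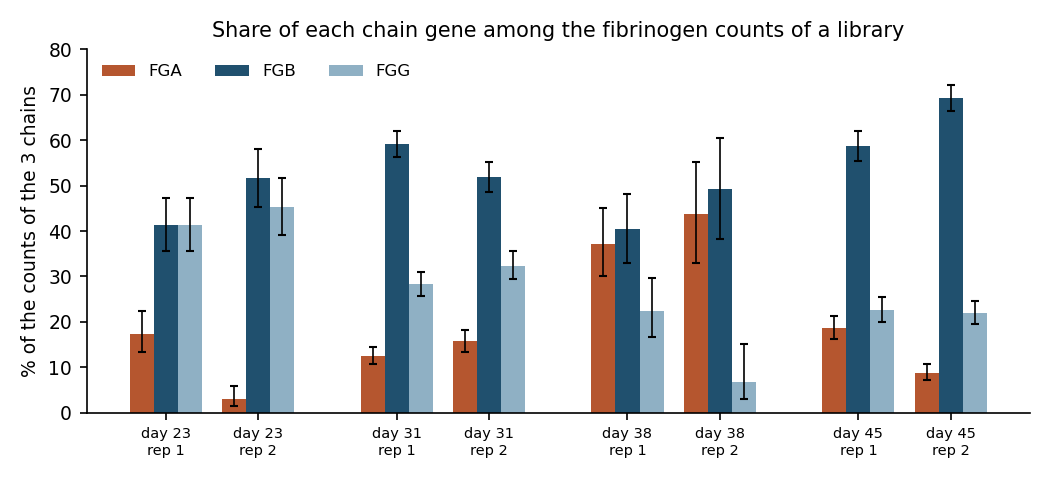
Share of FGA, FGB and FGG (vertical axis, % of the counts of the 3 chain genes) in each library of days 23 to 45, with 95% Wilson intervals for counting error as bars. FGA takes 37.2% and 43.8% in the day 38 libraries, above its share in the other 6 libraries shown, and FGB takes the largest share on days 31, 38 and 45. Day 16 is left out, with 25 and 1 counts in all.

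Across the 10 libraries, log2 CPM of FGB and FGG had a Pearson correlation of 0.94, FGA and FGB of 0.87, and FGA and FGG of 0.75, while FGL1 had 0.41 to 0.45 with the chains. These values describe 10 libraries that share day and medium in pairs. Of 13112 genes with a mean of at least 5 CPM, those most like the mean of the chains were EIF4G1 (0.97), a scaffold of translation initiation, ZCCHC14 (0.96), MTUS1 (0.96), a microtubule-associated protein, FASN (0.95), the fatty acid synthase, and ST6GAL1 (0.95), a sialyltransferase. EIF4G1 had mean levels of 217, 318, 357, 277 and 353 CPM from day 16 to day 45, so its course had the same highs and lows with a far smaller range than FGB. EIF4G1 also led for FGB (0.96) and FGG (0.96), QSOX1, a sulfhydryl oxidase that forms disulfide bonds, led for FGA (0.94), and ACSF3 led for FGL1 (0.90). By Spearman correlation, 3 of the 5 leading genes of FGA, 0 of FGB, 1 of FGG, 1 of FGL1 and 2 of the chains' mean stayed among the first 5, tied genes sharing a rank. With so many genes and 10 libraries, a list of this kind is unstable, and it says nothing of shared control.

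Genes that act with fibrinogen were followed in the same cells. Of 35 tested genes of clotting, anticoagulation and fibrinolysis, 7 rose (20.0%) and 0 fell on day 38 against day 31 (median log2 fold change 0.52). This count and those of the other steps moved when single libraries were left out, as given below. Calls are by edgeR's quasi-likelihood F-test, with p-values adjusted after Benjamini and Hochberg, and changes are given on the log2 scale ± SE. In this comparison 15.0% of 21014 tested genes were called, likewise with more rises than falls (1850 higher and 1310 lower, median 0.00). Without TMM factors the split of all genes turned to 1182 higher and 2368 lower, with the median of all genes at -0.20, so changes of that order on day 38 are relative to the scaling. Among the clotting factors, F13A1, the catalytic subunit of factor XIII that cross-links fibrin, was the only gene called of 12 tested, from 0.819 and 0.698 CPM on day 31 to 11.4 and 10.9 on day 38 (log2 change 3.86 ± 0.68, adjusted p = 7.49e-05). Of the liver-made factors, 4 are given that were chosen after their values were seen. F5, a cofactor in the activation of prothrombin, had 131 and 71 counts on day 31 and 74 and 84 on day 38, and F7, the protease that binds tissue factor, had 66 and 19 and 33 and 39. Prothrombin (F2), the precursor of the protease that cleaves fibrinogen, had 20 and 22 and 9 and 3 counts on these days, and factor IX (F9) had 3 counts in 1 of the 10 libraries.

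Fibrinolysis genes, which dissolve fibrin or check its removal, held 5 of the 7 rises. PLAU, the urokinase plasminogen activator, went from 6.55 and 0.931 to 22.7 and 25.96 CPM (log2 change 2.67 ± 0.57, adjusted p = 8.75e-04), a call lost with DESeq2 (2.67, adjusted p = 0.195). ANXA2, a plasminogen receptor subunit and the most abundant gene of the list, went from 139 and 145 to 350.1 and 313 CPM (log2 change 1.22 ± 0.16, adjusted p = 3.01e-07). SERPINE2, a protease inhibitor that acts on thrombin, went from 28.3 and 11.7 to 47.5 and 50.4 CPM (log2 change 1.28 ± 0.28, adjusted p = 0.00124). These genes rose on day 38, when the chain levels were low, but their levels did not mirror those of the chains over the course. On day 45, when the chains were high, PLAU had 35.99 and 53.1 CPM and ANXA2 295 and 284 CPM, and on day 16, when the chains were lowest, PLAU had 0.127 and 1.72 CPM. PLAT, the tissue plasminogen activator, was also among the 7 (log2 change 0.75 ± 0.23, adjusted p = 0.0226), a call lost without TMM factors (0.53, adjusted p = 0.117) and when any 1 of the 4 libraries was left out. The calls of PLAU and SERPINE2 were lost without replicate 2 of day 31 (1.88, adjusted p = 0.0511 and 0.78, adjusted p = 0.087). Of the anticoagulants, TFPI2, an inhibitor of the tissue factor pathway family, rose from 16.1 and 7.21 to 39.95 and 45.3 CPM (log2 change 1.87 ± 0.38, adjusted p = 4.03e-04). PROS1, protein S and the most abundant of them, had 120.0 and 117 CPM on day 31 and 92.97 and 99.99 on day 38 (log2 change -0.30 ± 0.17, adjusted p = 0.265).

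On day 45 against day 38, when 11.2% of all genes were called, 2 of the 35 genes rose and 0 fell (median 0.13, all genes -0.02). These were F3, tissue factor, the starter of coagulation (84.4 and 81.8 CPM to 127 and 151, log2 change 0.74 ± 0.20, adjusted p = 0.013) and its inhibitor TFPI (29.8 and 29.3 to 58.05 and 58.96 CPM, log2 change 0.98 ± 0.27, adjusted p = 0.012). Of the 12 fibrinolysis genes 0 were called. The TFPI call was lost when any 1 of the 4 libraries was left out (adjusted p 0.0534 to 0.112). The F3 call was lost without either day 38 library and without replicate 2 of day 45 (0.61, adjusted p = 0.155). A fit of the 4 libraries alone called 8 of the 35, and 3502 of all 21014 tested genes against 2353 in the main fit.

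On day 23 against day 16, 6 of the 35 rose and 1 fell, with 10.9% of all genes called. PLAT rose from 7.99 and 11.1 to 38.7 and 37.3 CPM (log2 change 1.99 ± 0.26, adjusted p = 6.28e-07). On day 31 against day 23, F3 (22.7 and 23.8 CPM to 75.1 and 47.6, log2 change 1.40 ± 0.22, adjusted p = 6.68e-05) and ANXA2 (72.7 and 97.4 to 139 and 145 CPM, log2 change 0.74 ± 0.16, adjusted p = 0.00479) were the 2 of 35 called. The ANXA2 call was lost without replicate 1 of day 23 (0.55, adjusted p = 0.215) and without either day 31 library (adjusted p 0.0555 and 0.0721). In this comparison 2.25% of all genes were called. Over the whole course, day 45 against day 16, 14 of the 35 rose and 0 fell (median 1.37), with 24.6% of all genes called (median 0.00). F3 (log2 change 3.53 ± 0.23, adjusted p = 3.29e-14) and PLAU (log2 change 5.56 ± 0.69, adjusted p = 8.17e-08) were among them.

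Receptors of fibrinogen and of FGL1 changed in both directions on day 38. ITGB3, the β3 integrin subunit of the platelet fibrinogen receptor and of the vitronectin receptor, went from 1.02 and 3.72 CPM on day 31 to 70.8 and 61.0 on day 38 (log2 change 4.82 ± 0.45, adjusted p = 2.72e-10). It had 65.2 and 58.8 on day 45. Its partner ITGAV also rose on day 38, from 249.8 and 206 to 343 and 376 CPM (log2 change 0.66 ± 0.14, adjusted p = 6.10e-04), a call lost without replicate 2 of day 31 (0.52, adjusted p = 0.051). In all, 4 of 9 tested receptor genes rose and 1 fell on day 38 (median 0.66, with 15.0% of all genes called), and 4 rose and 0 fell on day 45 against day 38 (median 1.14, with 11.2% of all genes called). ITGB1, the most abundant of them, had 417 and 352 CPM on day 31 and 524 and 503 on day 38 (log2 change 0.42 ± 0.13, adjusted p = 0.0234), a call lost without TMM factors (0.20, adjusted p = 0.32) and without 3 of the 4 libraries in turn. The rises on day 45 against day 38 included ICAM1, an adhesion molecule that binds fibrinogen, from 24.1 and 19.9 to 126 and 109 CPM (log2 change 2.41 ± 0.29, adjusted p = 2.18e-07). ITGAM, the α subunit of the leukocyte fibrinogen receptor, went from 0.216 and 0.116 to 23.5 and 9.61 CPM. Its β partner ITGB2, of the same list, had only 2.76 and 0.109 CPM on day 45, on 19 and 1 counts. The change of ITGAM starts from 2 and 1 counts on day 38, and its call was lost without replicate 1 of day 45 (5.73, adjusted p = 0.0866). LAG3, the receptor of FGL1, had 8.90 and 3.84 CPM on day 31, 1.08 and 0.698 on day 38 and 19.01 and 16.8 on day 45. It fell (log2 change -2.82 ± 0.65, adjusted p = 0.0018) and rose (log2 change 4.30 ± 0.66, adjusted p = 1.15e-05) in these steps. LAG3 thus shared the low on day 38 with the chain genes, on 10 and 6 counts there.

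Other genes with a fibrinogen-like domain had calls in both directions, each on few genes. Of 17 tested of 20, 3 rose and 1 fell on day 38 (median 0.35, with 15.0% of all genes called), and 1 rose and 3 fell on day 45 against day 38 (median -0.53, with 11.2% of all genes called). TNC, tenascin C of the extracellular matrix and the most abundant of the family, had 20.3 and 43.2 CPM on day 31, 173 and 173 on day 38 (log2 change 2.45 ± 0.35, adjusted p = 2.68e-06) and 26.4 and 41.5 on day 45 (log2 change -2.34 ± 0.35, adjusted p = 8.99e-06). From day 31 on it was thus highest where the chain genes were lowest, whereas on day 16 it was low, as they were (9.89 and 1.11 CPM). The fall of TNC on day 45 was not called by DESeq2 (-2.30, adjusted p = 0.066). MFAP4, a microfibril protein, rose on day 38 from 26.3 and 30.1 to 86.9 and 84.5 CPM (log2 change 1.60 ± 0.22, adjusted p = 1.29e-06). The angiopoietin ANGPT1 fell on day 38, from 43.2 and 39.6 to 24.7 and 23.9 CPM (log2 change -0.77 ± 0.24, adjusted p = 0.0218), a call lost when any 1 of the 4 libraries was left out.

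**Figure D2:**
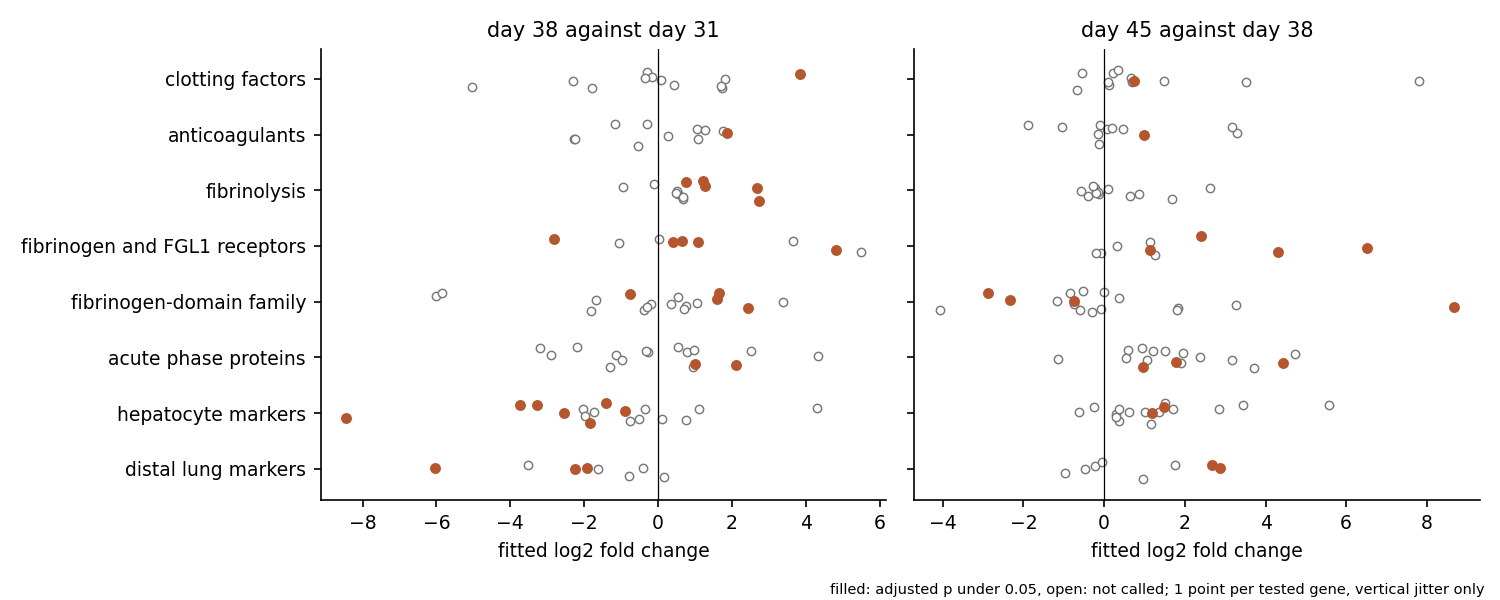
Fitted log2 fold changes (horizontal axes) of the tested genes of 8 lists (rows, 1 point per gene with vertical jitter) on day 38 against day 31 and on day 45 against day 38, filled where the adjusted p was under 0.05. On day 38 the called clotting, anticoagulant and fibrinolysis genes lie above 0, and the 7 called hepatocyte and 3 called distal lung markers lie below 0.

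Interleukin-6 signalling genes, through which fibrinogen is raised in the liver, were measured in the same cells. IL6 itself was at most 7 counts per library to day 31. It then had 2.48 and 2.44 CPM on day 38 (log2 change 3.08 ± 1.07, adjusted p = 0.0478, from 0 and 5 counts) and 22.3 and 12.01 on day 45 (log2 change 2.79 ± 0.89, adjusted p = 0.037). The second call was lost with DESeq2 (2.85, adjusted p = 0.436), with the filter of at least 5 CPM and without each library of these days. IL6R, the ligand-binding receptor, had its lowest mean on day 38 (5.52 ± 3.38 CPM), where its libraries overlapped with those of day 16 (10.1 and 7.39 CPM). It went from 19.9 and 23.3 CPM on day 31 to 3.13 and 7.92 on day 38 (log2 change -1.97 ± 0.43, adjusted p = 0.00117) and 15.1 and 9.72 on day 45 (log2 change 1.16 ± 0.43, adjusted p = 0.0812). The fall was not called without replicate 1 of day 38 (-1.44, adjusted p = 0.0887). IL6ST, the shared signalling receptor gp130 and the most abundant of the list, had 665 and 619.9, 534 and 529.6 and 698 and 722 CPM on these 3 days (log2 change -0.27 ± 0.13, adjusted p = 0.193 on day 38 and log2 change 0.42 ± 0.13, adjusted p = 0.0371 on day 45). The last call was lost when any 1 of the libraries of days 31, 38 and 45 was left out.

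STAT3, the transcription factor downstream, rose over the course from 62.6 and 64.01 CPM on day 16 to 268 and 249 on day 45 (log2 change 2.03 ± 0.14, adjusted p = 9.26e-14). On day 38 it was above day 31 (log2 change 0.42 ± 0.13, adjusted p = 0.0254), a call lost without TMM factors (0.20, adjusted p = 0.331), with upper-quartile factors and without 3 of the 4 libraries in turn. SOCS3, a STAT3 target that inhibits the pathway, had 147 and 133 CPM on day 31, 93.5 and 91.8 on day 38 (log2 change -0.60 ± 0.20, adjusted p = 0.0347) and 33.4 and 24.7 on day 45 (log2 change -1.68 ± 0.21, adjusted p = 3.67e-07). SOCS3 thus fell on day 45 where FGB was highest, although its fall on day 38 was not called when any 1 of the 4 libraries of days 31 and 38 was left out. In all, 3 of the 17 genes rose and 3 fell on day 38 (median -0.12, with 15.0% of all genes called). On day 45 against day 38, 4 rose and 1 fell (median 0.36, with 11.2% of all genes called). Over the whole course, 9 rose and 0 fell on day 45 against day 16 (median 1.22, with 24.6% of all genes called). Without replicate 1 of day 38, 0 of the 17 were called on day 38 and 1 on day 45. On day 23 against day 16, 4 rose and 0 fell, with 10.9% of all genes called. STAT3 (log2 change 1.25 ± 0.14, adjusted p = 4.26e-08) and JAK1, a kinase of the pathway (log2 change 1.17 ± 0.15, adjusted p = 1.02e-06), were among the 4. On day 31 against day 23, 3 rose and 0 fell, with 2.25% of all genes called. This count depended on single libraries, as given below.

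Of the factors known to act on the fibrinogen promoters, CEBPD and CEBPB rose on day 45 against day 38. CEBPD, an acute phase factor, had already risen in the first 2 steps, with 2.28 and 4.80 CPM on day 16, 33.6 and 26.3 on day 23 (log2 change 3.07 ± 0.26, adjusted p = 1.28e-10) and 81.6 and 82.5 on day 31 (log2 change 1.45 ± 0.21, adjusted p = 2.71e-05). It then had 70.7 and 60.8 CPM on day 38 (log2 change -0.32 ± 0.20, adjusted p = 0.342) and 136 and 127 on day 45 (log2 change 1.00 ± 0.20, adjusted p = 6.41e-04). CEBPB, its relative, rose on day 45 from 22.5 and 20.8 to 75.5 and 50.3 CPM (log2 change 1.54 ± 0.33, adjusted p = 0.00142), a call lost without replicate 1 of day 45 (1.22, adjusted p = 0.0618). CEBPA, which acts in resting liver and was chosen after its values were seen, was called in none of these comparisons, with means of 18.6, 24.1, 17.5, 12.6 and 19.7 CPM. CEBPD and CEBPB were at their highest mean on day 45, as were FGA and FGB.

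HNF4A, a hepatocyte regulator, had 1 and 5 counts on day 16, 0 and 0 on day 23 and 88 and 52 on day 31, and had 10.04 and 9.43 CPM on day 38 and 10.01 and 6.33 on day 45. FOXA1 had 27.9 and 17.3 CPM on day 31, 27.5 and 21.1 on day 38 and 16.3 and 14.96 on day 45. FOXA2 rose on day 31 (log2 change 2.52 ± 0.53, adjusted p = 0.00431) to 22.5 and 13.6 CPM, a call lost without replicate 1 of day 31 (2.10, adjusted p = 0.146) or replicate 2 of day 23 (2.49, adjusted p = 0.0553). It fell on day 45 to 3.34 and 4.69 (log2 change -1.64 ± 0.52, adjusted p = 0.0331), a call lost when any 1 of the 4 libraries was left out. NR3C1, the glucocorticoid receptor and the most abundant of the list, had 59.8 and 49.7 CPM on day 31, 69.4 and 59.4 on day 38 (log2 change 0.23 ± 0.19, adjusted p = 0.468) and 90.99 and 95.6 on day 45 (log2 change 0.54 ± 0.18, adjusted p = 0.056). In all, 0 of 13 factors rose and 1 fell on day 38 (median 0.10, with 15.0% of all genes called), and 2 rose and 3 fell on day 45 against day 38 (median -0.26, with 11.2% of all genes called). Early on, 2 rose and 1 fell on day 23 against day 16 (with 10.9% of all genes called). On day 31 against day 23, 3 rose and 0 fell (with 2.25% of all genes called).

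**Figure D3:**
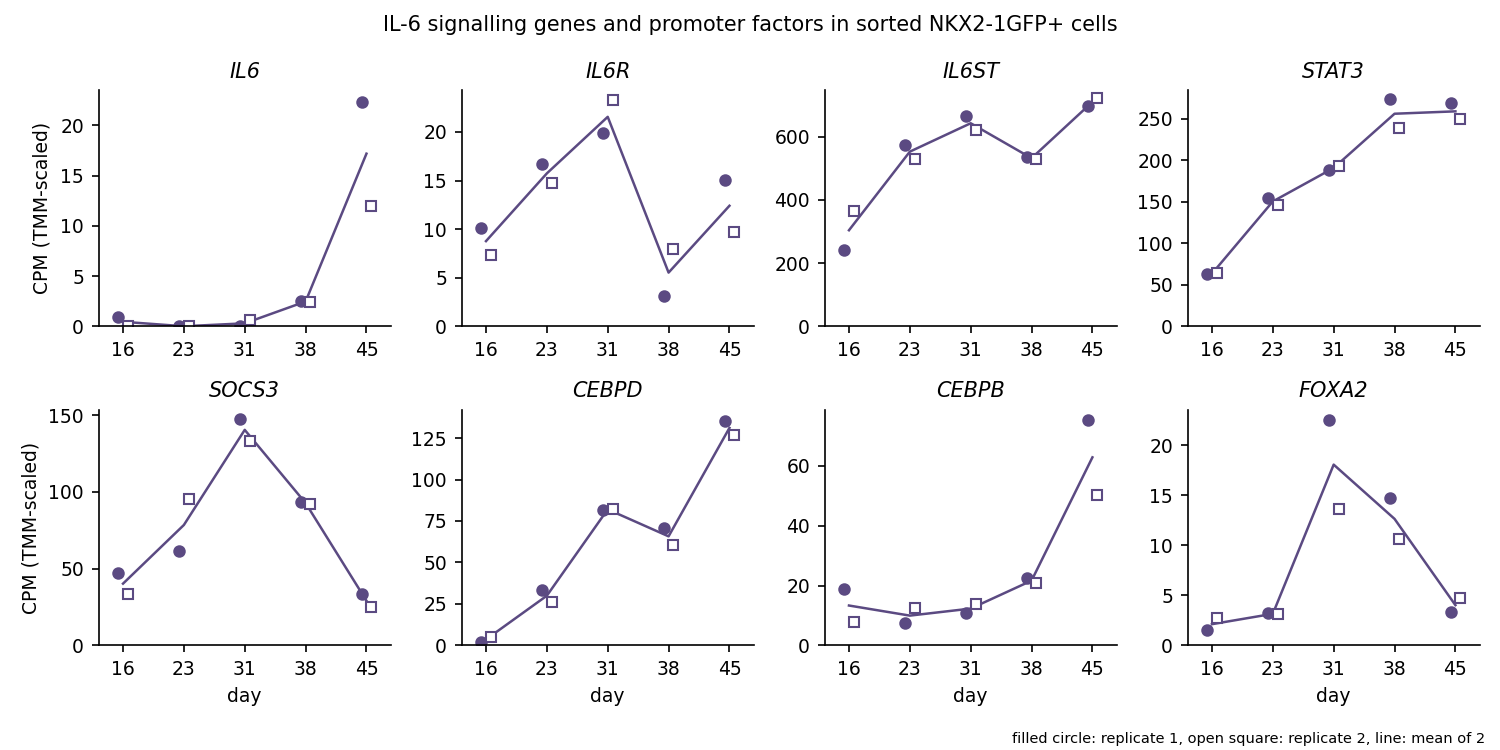
Levels (vertical axes, TMM-scaled CPM from 0) by day (horizontal axes) of IL-6 signalling genes and of factors of the fibrinogen promoters in the 10 libraries, with filled circles for replicate 1, open squares for replicate 2 and lines through the means of 2. The mean of IL6R is lowest on day 38, with libraries overlapping those of day 16. IL6, CEBPB and CEBPD are highest on day 45, and the means of SOCS3 and FOXA2 are lower at each day after day 31.

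Several glucocorticoid target genes rose on day 38, where the chain levels were low. FKBP5, a chaperone induced by glucocorticoids, rose on day 38 from 34.1 and 39.8 to 142 and 157 CPM (log2 change 2.02 ± 0.23, adjusted p = 3.98e-08), and TSC22D3, a leucine zipper protein also called GILZ, rose from 66.7 and 51.9 to 139.9 and 120.1 CPM (log2 change 1.13 ± 0.17, adjusted p = 4.90e-06). Of the 7 genes, 4 rose and 0 fell on day 38 (median 1.13, with 15.0% of all genes called), and 0 rose and 1 fell on day 45 against day 38 (median -0.04, with 11.2% of all genes called). FKBP5 remained at 123 and 129 CPM on day 45, so that it was high both at the low of the chain genes and at their return.

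Of other acute phase genes, 2 of 16 tested (12.5%) were called on day 38, beside 15.0% of all genes. The difference between these shares was not tested. SERPINA1, α1-antitrypsin and the most abundant of the list, had 0.127 and 0.369 CPM on day 16, 15.1 and 7.89 on day 23 and 79.6 and 76.1 on day 31. It rose to 211 and 102 on day 38 (log2 change 1.01 ± 0.22, adjusted p = 0.00113) and 335 and 272 on day 45 (log2 change 0.96 ± 0.22, adjusted p = 0.00233). Its rise on day 38 rests on replicate 1 (0.39, adjusted p = 0.383 without it), and its rise on day 45 was lost without replicate 2 of day 38 (0.53, adjusted p = 0.2) or replicate 1 of day 45 (0.80, adjusted p = 0.054). CP, ceruloplasmin, rose on day 38 from 10.9 and 13.03 to 61.4 and 41.2 CPM (log2 change 2.10 ± 0.28, adjusted p = 8.29e-07). C3, the central complement component, had 55.8 and 76.4, 75.5 and 28.99 and 212 and 149.6 CPM on days 31, 38 and 45 (log2 change -0.34 ± 0.27, adjusted p = 0.483 and log2 change 1.79 ± 0.28, adjusted p = 1.45e-05). Of 16 tested acute phase genes of 22, 2 rose and 0 fell on day 38 (median 0.13). On day 45 against day 38, 3 rose and 0 fell (median 1.65, with 11.2% of all genes called). CRP, APCS and SAA4 were at 0 in all 10 libraries. On day 31 against day 23, 5 rose and 0 fell (median 1.37, with 2.25% of all genes called), a count that depended on single libraries, as given below. On day 23 against day 16, 3 rose and 1 fell, with 10.9% of all genes called.

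Markers of hepatocytes and of distal lung, the cell types known to make fibrinogen, moved in part with it. Summed over 18 hepatocyte markers, the level was 129 and 116 CPM on day 16, 148 and 160.5 on day 23, 332 and 306 on day 31, 200.4 and 117 on day 38 and 318 and 352 on day 45. CPS1 was the most abundant, and each marker was detected in at least 1 library. Of 17 tested, 0 rose and 7 fell on day 38 (median -1.41, with 15.0% of all genes called), and 2 rose and 0 fell on day 45 against day 38 (median 1.17, with 11.2% of all genes called). On day 31 against day 23, 6 rose and 1 fell, with 2.25% of all genes called. Of these rises, TTR and APOB were not called by DESeq2 (1.78, adjusted p = 0.502 and 2.42, adjusted p = 0.231). The calls of TTR and TF were lost when any 1 of the 4 libraries was left out. That of APOA2 was lost without replicate 1 of either day, and that of APOB without replicate 2 of day 23. The marker that fell was CPS1, a urea cycle enzyme (log2 change -1.16 ± 0.21, adjusted p = 5.96e-04). TTR, transthyretin, fell on day 38 from 57.5 and 53.97 to 4.97 and 3.38 CPM (log2 change -3.73 ± 0.54, adjusted p = 2.41e-06) and had 0.580 and 9.83 CPM on day 45. APOA2, an apolipoprotein of high density lipoprotein, fell from 22.1 and 17.1 to 2.48 and 1.51 CPM (log2 change -3.28 ± 0.65, adjusted p = 3.37e-04) and had 4.35 and 6.99 on day 45 (adjusted p = 0.137 against day 38). Both fell on day 38, and on day 45 they stood at 9.33% (TTR) and 28.9% (APOA2) of their highest daily mean, against 100% for FGB.

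ALB, the gene of albumin, was not among the markers that fell. It had 0.111 and 0 CPM on day 23, 23.8 and 21.3 on day 31, 50.97 and 25.1 on day 38 (log2 change 0.75 ± 0.29, adjusted p = 0.0785) and 119 and 95.7 on day 45 (log2 change 1.49 ± 0.29, adjusted p = 3.08e-04). AFP, the fetal albumin, had 71.8 and 50.1, 49.9 and 35.04 and 96.9 and 97.9 CPM, and rose on day 45 (log2 change 1.197 ± 0.28, adjusted p = 0.00287), a call lost without replicate 2 of day 38 (0.97, adjusted p = 0.0823). APOB, the core apolipoprotein of low density lipoprotein, differed between replicates, with 63.1 and 73.7 CPM on day 31 and 43.8 and 7.45 on day 38, and its fall at that day was not called by DESeq2 (-1.45, adjusted p = 0.369), with the filter of at least 5 CPM or without 3 of the 4 libraries in turn. Replicate 1 of day 38 was above replicate 2 for ALB, AFP, APOB, SERPINA1 and C3, and also for FGA, FGB and FGG. These genes were picked from the lists, and the reverse held for the lung marker SFTPB, given below. The share of all genes with this order was not counted, and its cause was not tested.

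Among 9 distal lung markers, SFTPB, surfactant protein B was the most abundant. SFTPB had 165 and 149 CPM on day 23, 499 and 502 on day 31, 6.59 and 8.61 on day 38 (log2 change -6.04 ± 0.21, adjusted p = 1.41e-21) and 46.1 and 50.2 on day 45 (log2 change 2.67 ± 0.20, adjusted p = 7.72e-12). Its low on day 38 was deeper than that of the chain genes, at 1.52% of its highest daily mean against 7.31% for FGB and 6.62% for FGG. Its level on day 45 was 9.63% of its highest, against 100% for FGB and 79.9% for FGG. The list summed to 644 and 652 CPM on day 31, 139.6 and 137 on day 38 and 158 and 169 on day 45. SFTPC, the defining marker of alveolar type 2 cells, had 1 count in 1 of the 10 libraries. Of 8 tested, 0 rose and 3 fell on day 38 (with 15.0% of all genes called), and 2 rose and 0 fell on day 45 against day 38 (with 11.2% of all genes called). In bulk samples, fewer cells of a type and less RNA per cell cannot be told apart, and the part of hepatocyte-like or lung-like cells in the fibrinogen levels was not tested.

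**Figure D4:**
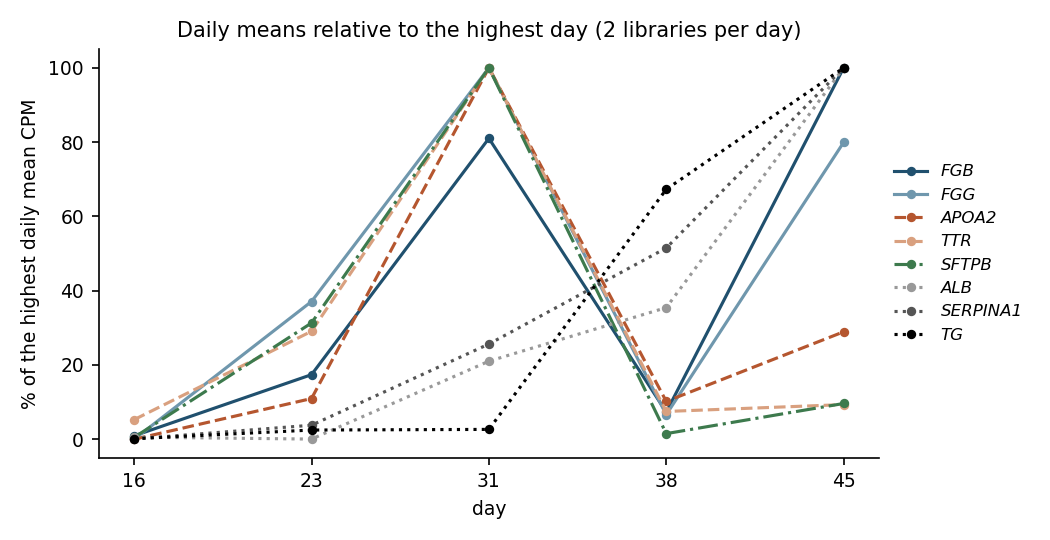
Daily means (vertical axis, % of the gene's highest daily mean CPM, 2 libraries per day) by day (horizontal axis) for FGB and FGG, for the hepatocyte markers APOA2, TTR and ALB, the acute phase gene SERPINA1, the lung marker SFTPB and the thyroid gene TG. FGB, FGG, APOA2, TTR and SFTPB are all under 11% on day 38, and of these FGB and FGG return to 100% and 79.9% on day 45, while ALB, SERPINA1 and TG have no low on day 38.

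Of 8 thyroid genes, 4 rose and 0 fell on day 38, and 1 rose and 3 fell on day 45 against day 38. Beside these counts and those of the marker lists below, 15.0% of all genes were called on day 38 and 11.2% on day 45. TG was at 199.9 and 211 CPM on day 31 and 5545 and 4874 on day 38 (log2 change 4.66 ± 0.12, adjusted p = 2.37e-25). NKX2-1, the gene whose reporter defined the sort, had 151 and 157, 154 and 133 and 58.05 and 66.7 CPM on days 31, 38 and 45 (log2 change -0.10 ± 0.15, adjusted p = 0.735 and log2 change -1.20 ± 0.15, adjusted p = 6.30e-07). Mesodermal markers summed to 206 and 276 CPM on day 31, 1237 and 1256 on day 38 and 1243 and 1028 on day 45, mostly COL1A2, a collagen chain. Of 5 tested, 2 were higher and 0 lower on day 38 and 1 higher on day 45 against day 38. The 9 airway and goblet markers, MUC5B the most abundant, summed to 35.6 and 56.4, 80.7 and 63.1 and 187 and 111 CPM, with 2 higher and 1 lower on day 38 and 3 higher and 1 lower on day 45. The 5 endothelial markers summed to 58.3 and 55.7, 20.5 and 25.1 and 50.5 and 16.5 CPM. Of these, KDR, the most abundant, and TEK fell on day 38, and 0 were called on day 45. The KDR call was lost without replicate 1 of day 31 (-1.32, adjusted p = 0.0945), and that of TEK without replicate 2 of day 31 (-1.39, adjusted p = 0.16) or replicate 1 of day 38 (-1.30, adjusted p = 0.24). Platelets carry fibrinogen. The 5 megakaryocyte markers summed to 8.80 and 15.4 CPM on day 31, 6.59 and 9.78 on day 38 and 22.9 and 18.8 on day 45, mostly GP1BA. Of 2 tested, 0 were called on day 38, and PF4 was at 0 in 8 libraries and PPBP and GP9 in 9. The part of these cell types in the fibrinogen levels was not tested.

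Neighbouring genes on the chromosomes were followed as well. Of 14 tested neighbours of the cluster and of FGL1, 2 rose and 1 fell on day 38 (median 0.25, with 15.0% of all genes called), and 3 rose and 0 fell on day 45 against day 38 (median 0.18, with 11.2% of all genes called). On the side of the cluster, DCHS2, a cadherin gene, rose on day 38 from 6.65 and 9.07 to 26.1 and 24.4 CPM (log2 change 1.69 ± 0.42, adjusted p = 0.00399), a call lost without replicate 1 of day 31 (1.47, adjusted p = 0.0757), and had 17.4 and 16.4 CPM on day 45. PLRG1, a splicing factor gene and the neighbour next to FGB, chosen after its values were seen, had 75.8 and 52.8 CPM on day 31, 63.8 and 67.1 on day 38 and 73.1 and 60.05 on day 45 (log2 change 0.02 ± 0.20, adjusted p = 0.972 and log2 change 0.02 ± 0.20, adjusted p = 0.977). PCM1, a centriolar satellite protein gene near FGL1 and the most abundant neighbour, had 619 and 608, 476 and 576 and 523 and 602 CPM. The neighbour that fell was MTUS1, also near FGL1, with 145 and 147, 87.6 and 90.6 and 136 and 149 CPM (log2 change -0.71 ± 0.15, adjusted p = 7.65e-04 and log2 change 0.68 ± 0.15, adjusted p = 0.00189). MTUS1 was among the genes most like the chains. SLC7A2, an amino acid transporter gene near MTUS1, rose in both steps (log2 change 2.38 ± 0.13, adjusted p = 1.23e-15 and log2 change 1.15 ± 0.13, adjusted p = 3.27e-08).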

How the data were processed

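Bulk RNA-seq counts were analysed from 10 libraries, 2 on each of 5 days. The authors used Trimmomatic for trimming, HISAT2 for alignment (GRCh38) and HTSeq with the Ensembl annotation of GRCh38.p13 for gene counts, which they deposited for each library without normalization. Tool versions and the strand setting of the counting are not given in the sources used here. Blank lines between entries were dropped. Gene positions and exon lengths came from GENCODE 44, by symbol (25474 of 28265 matched), and promoter sequences from RefSeq.

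The 21014 genes that reached 5 counts in 2 or more libraries were fitted over all libraries with edgeR 4.0.16 (R 4.3.3; quasi-likelihood F-test, TMM factors, a mean per day), for 5 comparisons of days, with Benjamini-Hochberg adjustment over all tested genes and a threshold of 0.05. CPM values are TMM-scaled. The members and the gene lists were chosen with earlier results of these data known, and no list was tested as a set. Within each list and comparison, at most the 4 called genes with the largest change and a mean of at least 5 CPM are named, with the most abundant gene, a set of regulators, and, for each member and the chains' mean, the 5 genes with the highest correlation of log2 CPM (prior count 2) over the libraries. Markers at 0 are named as well. Some genes counted in the lists are not reported here.

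Totals were 7247268 to 10333933 counts. Wilson intervals and the 3-count floors cover counting error only. By the study's methods the libraries of a day are biological replicates, each of several wells. Whether they came from separate differentiations is not stated, and p-values measure the spread between these libraries. Alternatives were DESeq2 1.42.0, no TMM factors, upper-quartile factors, other low-count filters, the libraries compared alone, the replicate number as a block, and leaving out each library. On simulated counts for day 38 against day 31 (21014 genes, 200 changed), edgeR recovered 40% of changes of 1 on the log2 scale. It recovered 72% of changes of 2, and 5 of its 117 calls were false. The simulated spread followed the mean level alone, changed genes were drawn above a minimum level, and other genes had the same mean on all days. These rates therefore need not hold for the data, where 3160 genes were called.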

Additional observations from a re-analysis of the deposited data

How the results depend on the processing

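The lows of FGA, FGB and FGG on day 38 and their return on day 45 kept their direction under all alternatives run, and of 218 called results of list genes with at least 5 CPM, 0 changed sign, 92 were lost under at least 1 alternative and 38 under one other than leaving out a library. For the chains the kept direction adds no support, because their libraries did not overlap in either step and leaving out a library could hardly reverse it. With the 4 compared libraries alone, 734 genes were called for day 31 against day 23 (473 in all libraries). The same fit called 4 clotting, anticoagulant and fibrinolysis genes (7) and 2 acute phase genes (4) on day 23 against day 16. Over all genes it called 2220 (2296) there. On day 45 against day 38 it called 8 (2) and 5 (3) of these lists, and 3502 (2353) over all genes. DESeq2 called 4 of the former list there, and 2564 over all genes. With no filter on low counts, 4 clotting, anticoagulant and fibrinolysis genes were called on day 31 (2) and 4 acute phase genes on day 38 (2). Over all genes this setting called 667 (473) and 3399 (3160). FGG on day 31 against day 23 had a log2 fold change of 1.46 without TMM factors (1.43).

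Leaving out each library in turn gave 1401 to 2477 calls for day 23, 214 to 679 for day 31, 1818 to 3679 for day 38 and 1216 to 2866 for day 45, each against the day before. Clotting, anticoagulant and fibrinolysis calls ran from 4 to 7, 1 to 4, 4 to 9 and 0 to 3 in these comparisons, interleukin-6 pathway calls from 0 to 4 (day 31), 0 to 7 (day 38) and 1 to 5 (day 45), and acute phase calls from 1 to 5 (day 31) and 1 to 3 (day 45). The members' log2 fold changes ran from -0.23 to 4.45 (FGA) and 3.21 to 9.84 (FGB) on day 23, 1.58 to 4.23 (FGA) on day 31, -5.79 to -3.12 (FGG) and -1.97 to 0.30 (FGL1) on day 38, and 0.96 to 2.21 (FGA) and 2.79 to 5.46 (FGG) on day 45. Against day 16, day 45 gave 3.198 to 6.89 (FGA) and 5.74 to 12.34 (FGB). FGA on day 23 turned to -0.23 without day 23 replicate 1, and FGL1 on day 38 to 0.30 without day 31 replicate 1. The causes were not tested, apart from values that then rest on a library at 0 or 1 count.

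The replicate numbers did not pair the libraries (correlations of deviations between days -0.032 to 0.020). A fit with the replicate block called 2703, 678, 3472 and 2691 genes in successive comparisons and 5460 for day 45 against day 16, and it lost 0 of the 218 calls. With 2 libraries a day, and 25 and 1 chain counts on day 16, differences from day 16 and all FGL1 levels are limited by depth.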
